A study of Mus musculus with 2 samples.

Results

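Branched-chain amino acid breakdown was described here through 10 genes, taken by name as the listed enzymes and regulators of the pathway: Bcat1, Bcat2, Bckdha, Bckdhb, Dbt, Dld, Bckdk, Ppm1k, Mccc1 and Mccc2. They are 10 of the 19938 genes that had a probe set with a single gene symbol. Each of the 10 was read by 1 probe set, and 0 probe sets with several symbols included one of them. Expression was measured in white adipose tissue, where the body stores most of its fat, with Affymetrix Mouse Gene 1.0 ST arrays. One array held RNA labelled as Oma1-deficient (Oma1_KO) and the other RNA labelled as control (Oma1_WT). Mice of both genotypes were 24 weeks old and had been on a high-fat diet for 20 weeks, and no array of another diet was analysed here. How Oma1 was disrupted, the strain, the sex, the fat depot and whether RNA of several mice was pooled are not given in the labels.

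Leucine, isoleucine and valine share their first steps of breakdown. A branched-chain aminotransferase first moves the amino group to 2-oxoglutarate, a reversible step, and the branched-chain 2-oxo acid dehydrogenase complex of the mitochondrial matrix then decarboxylates the oxo acid, which commits it to oxidation. A kinase switches the complex off by phosphorylating its E1 alpha subunit, and a phosphatase switches it on again. Adipocytes run the whole pathway and use its carbon for fatty acid synthesis. The Oma1 protein is a stress-activated protease in the inner mitochondrial membrane, and the fusion protein Opa1 is its best known substrate.

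With a single array per genotype there is no replicate, so no spread between mice and no p-value can be given for any value below. A difference is the log2 of intensity plus 1 in the Oma1-deficient array minus the same in the wild-type array. Intensities of different genes come from different probes and were not set against each other. As a technical yardstick, the SD of a probe set's difference around the mean of its gene was 0.17, over 545 genes with 2 probe sets. It covers disagreement between probes on the same RNA and nothing between animals. A gap between the differences of 2 probe sets spreads wider than this SD. All 10 genes lay above the intensity filter, the median of all probe sets, which was 83 on both arrays. Genes past the filter numbered 11399, with a median difference of -0.06 and quartiles of -0.18 and 0.07. Upper quartiles of all probe sets were 318 in the Oma1-deficient and 335 in the wild-type array.

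Between the 2 arrays the 10 genes did not differ as a block. Bckdhb, Bcat2 and Bcat1 were higher in Oma1-deficient fat by 1.4 to 1.58-fold, while the other subunits of the dehydrogenase complex, its kinase and phosphatase and both subunits of a later enzyme of leucine breakdown lay within 1.2-fold. Of the 10 genes 5 were higher and 5 lower, against 36.6% higher and 62.3% lower over the 11399 genes past the filter. That background split depended on the scaling, with 46.9% higher and 52.2% lower after quantile normalisation, 47.5% higher and 52.5% lower after loess, and 50% each once centred on the median, while the members stayed at 5 and 5 under these 3 scalings. At least 1.2-fold higher were 3 of the 10, against a background of 7.13%, and at least 1.2-fold lower were 0 of the 10, against 14.6%. At least 1.5-fold higher were 2 of the 10, against 1.23%, and 0 were at least 1.5-fold lower, against 1.74%. The members were chosen with earlier results of these data known, so these counts beside the background are no test of the set. The median difference of the 10 genes was 0.01. Set against the yardstick of 0.17, the difference was larger than it in 3 genes on the higher side and 2 on the lower side, and within it in 5. The 2 on the lower side, Bckdha and Mccc2, were not unusual. Of all genes past the filter, 19.5% had a lower difference than Bckdha and 21.1% a lower one than Mccc2. The counts beside the yardstick depended on the scaling. After loess or centring Bckdha was at -0.16 and Mccc2 at -0.15, both within it. Ppm1k, within it on the deposited scale, was at 0.18 after centring.

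Promoter sequence is shown for the 3 genes that were higher, and for Bckdha, whose protein is the partner of Bckdhb in the E1 component and whose difference had the other sign. RefSeq promoter windows of build GRCm38.p6, from 250 bases before to 50 bases after a transcription start, were found for 9 of the 10 genes. Bcat1, Bcat2 and Bckdhb, the 3 higher genes, had 2 windows each, and the one farthest 5′ was taken. Their other windows were not read, so what follows describes 1 of 2 listed windows for each of these genes. The windows are chr9:83924887-83925186 on the plus strand for Bckdhb, chr7:45569903-45570202 on the plus strand for Bcat2, chr6:145076108-145076407 on the minus strand for Bcat1 and chr7:25658712-25659011 on the minus strand for Bckdha. They are printed 5′ to 3′ on the gene's strand, with capitals on each GC box (GGGCGG) and CCAAT box (CCAAT) found on either strand.
Bckdhb: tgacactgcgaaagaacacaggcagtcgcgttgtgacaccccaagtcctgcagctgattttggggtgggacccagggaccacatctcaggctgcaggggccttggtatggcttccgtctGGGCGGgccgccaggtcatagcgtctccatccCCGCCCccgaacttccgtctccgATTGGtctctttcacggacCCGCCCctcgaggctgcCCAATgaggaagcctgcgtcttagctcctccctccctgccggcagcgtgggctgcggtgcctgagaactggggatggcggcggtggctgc
Bcat2: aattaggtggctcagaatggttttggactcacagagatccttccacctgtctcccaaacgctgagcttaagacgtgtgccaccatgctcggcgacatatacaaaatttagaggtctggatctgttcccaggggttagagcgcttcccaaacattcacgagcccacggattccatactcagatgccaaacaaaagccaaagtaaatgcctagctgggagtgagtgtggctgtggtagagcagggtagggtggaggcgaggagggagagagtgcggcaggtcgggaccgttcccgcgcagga
Bcat1: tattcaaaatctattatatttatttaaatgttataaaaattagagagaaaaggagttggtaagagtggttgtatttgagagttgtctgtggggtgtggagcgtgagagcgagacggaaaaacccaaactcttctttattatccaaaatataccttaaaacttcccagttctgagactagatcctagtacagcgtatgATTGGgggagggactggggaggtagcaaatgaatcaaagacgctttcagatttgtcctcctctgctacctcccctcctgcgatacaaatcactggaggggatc
Bckdha: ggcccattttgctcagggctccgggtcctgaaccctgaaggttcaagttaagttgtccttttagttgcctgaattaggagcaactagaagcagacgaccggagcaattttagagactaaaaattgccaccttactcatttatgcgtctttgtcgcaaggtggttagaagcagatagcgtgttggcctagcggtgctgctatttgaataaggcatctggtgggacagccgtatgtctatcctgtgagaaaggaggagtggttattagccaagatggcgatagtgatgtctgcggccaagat

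The windows taken for the 3 higher genes differed in composition. The Bckdhb window was 65% G and C with 20 CpG dinucleotides, the Bcat2 window 54% with 13 and the Bcat1 window 41% with 6, and the Bckdha window was 48% with 10. Over the windows of 27025 genes the median was 52.7% G and C, with 7 CpG dinucleotides. Bckdhb held 3 GC boxes and 2 CCAAT boxes, Bcat1 held 1 CCAAT box, and in Bcat2 and Bckdha neither motif was found. Among the 9 genes a GC box was found in 3 (Bckdhb, Ppm1k and Mccc1), against 35.9% of all windows, and a CCAAT box in 7, against 38%. The E-box (CACGTG) was found in Mccc2 alone, against 7.24% of all windows. The core hexamer of nuclear receptor sites (AGGTCA) was found in Bckdhb and Ppm1k, against 16%, and a TATA box (TATAAA) in Bcat1 and Bckdk, against 14.2%. The C/EBP-ATF element, through which ATF4 acts in the amino acid response and of which the letters TGATGNAA were searched, was found in 0 of the 9, against 4.06%. All motifs were searched on both strands, their overlaps were not removed, and a match describes letters in the window only.

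The aminotransferases stand at the entry of the pathway. Bcat2, the mitochondrial enzyme and the main form in fat and muscle, read an intensity of 1087 in the Oma1-deficient array and 724 in the wild-type array. That is a log2 difference of 0.59, or 1.5-fold, and 139 of the 11399 genes (1.22%) had a higher difference. It lay at the edge of the 1.5-fold size and fell under it with a pseudocount of 16, at 0.58 against a log2 threshold that also rounds to 0.58. Bcat1, the cytosolic enzyme, known mainly from brain and from activated or proliferating cells, read 229 in Oma1-deficient and 163 in wild-type fat, a difference of 0.49 or 1.4-fold. A higher difference was found for 215 genes (1.89%). Both enzymes were thus higher in Oma1-deficient fat, and their differences were 0.10 apart on the log2 scale, less than the yardstick of 0.17.

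**Figure D1:**
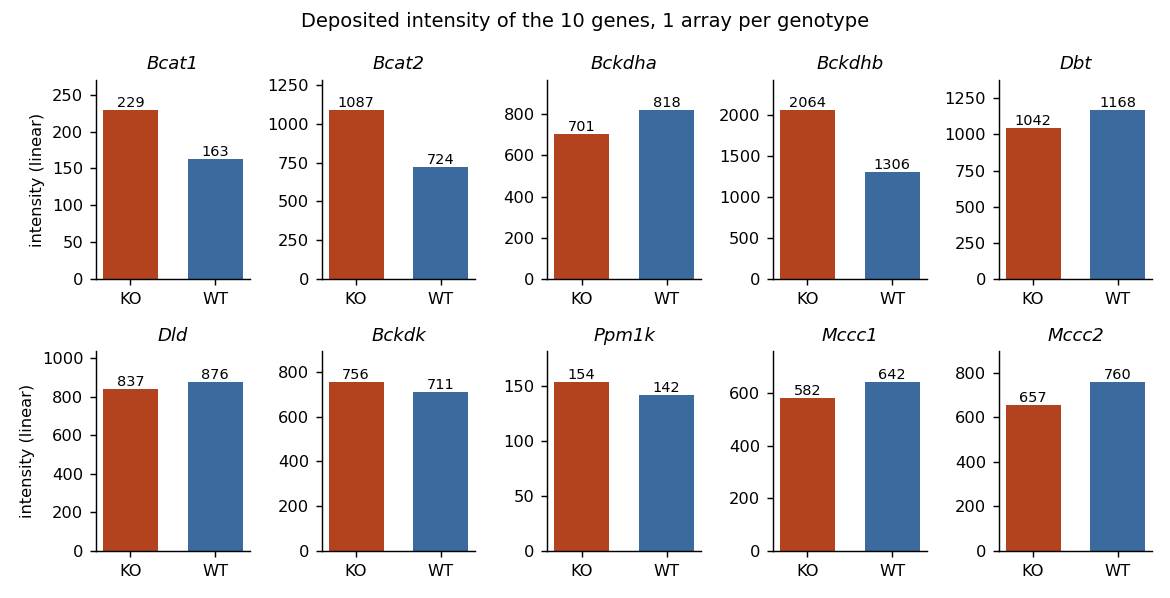
Deposited intensity on a linear scale from 0 (vertical axis, scaled separately for each gene) of the 10 genes in the Oma1-deficient (KO, left bar) and wild-type (WT, right bar) array; each bar is 1 array, so there are no error bars. Bcat1, Bcat2 and Bckdhb show the widest gaps, with KO against WT values of 229 against 163, 1087 against 724 and 2064 against 1306, and the other 7 genes differ by less than 1.2-fold.

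The dehydrogenase complex is built of an E1 component that decarboxylates the oxo acid, an E2 core that carries the acyl group on lipoic acid and an E3 enzyme that re-oxidises the lipoyl arm. Bckdhb, the E1 beta subunit, read 2064 in the Oma1-deficient array and 1306 in the wild-type array. Its difference of 0.66, or 1.58-fold, was the highest of the 10, and 103 of the 11399 genes (0.904%) exceeded it. Bckdha, the E1 alpha subunit that is phosphorylated, read 701 in Oma1-deficient and 818 in wild-type fat, a difference of -0.22, the lowest of the 10. The alpha and beta chains form one enzyme, and their differences were 0.88 apart on the log2 scale, a 1.84-fold shift of the Bckdhb probe set relative to that of Bckdha.

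Dbt, the E2 core, read 1042 in the Oma1-deficient array and 1168 in the wild-type array, a difference of -0.16. Its difference was 0.82 below that of Bckdhb. Dld, the E3 dihydrolipoyl dehydrogenase, read 837 in Oma1-deficient and 876 in wild-type fat, a difference of -0.07, close to the median of -0.06 over all genes past the filter. So within the complex 1 gene of 4 was at least 1.2-fold higher, against 7.13% of all genes past the filter. The other 3 were lower by less than that, where 62.3% of all genes were lower.

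The regulators of the complex were close on the 2 arrays. Bckdk, the kinase that inactivates E1, read 756 in Oma1-deficient and 711 in wild-type fat, a difference of 0.09. Ppm1k, the mitochondrial phosphatase that reactivates it, read 154 in Oma1-deficient and 142 in wild-type fat, a difference of 0.12. Kinase minus phosphatase came to -0.03 and to 0.01 after loess, so which of them was the higher depended on the scaling. Neither value measures phosphorylation of E1.

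Leucine's oxo acid, once decarboxylated and dehydrogenated, is carboxylated by 3-methylcrotonyl-CoA carboxylase, a biotin enzyme of 2 kinds of subunit. Mccc1, the alpha subunit that carries the biotin, read 582 in Oma1-deficient fat and 642 in wild-type fat, a difference of -0.14. Mccc2, the beta subunit, read 657 in Oma1-deficient and 760 in wild-type fat, a difference of -0.21. Unlike the E1 subunits, these partners differed by only 0.07 from each other, less than the yardstick.

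**Figure D2:**
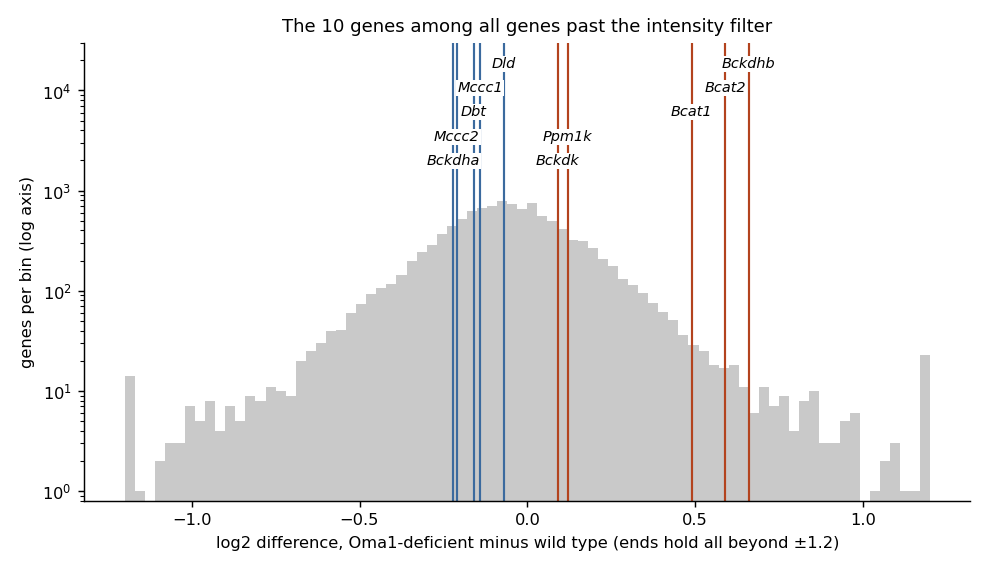
Histogram of the log2 difference, Oma1-deficient minus wild type, of the 11399 genes past the intensity filter (horizontal axis; vertical axis, genes per bin on a log scale), with a line at each of the 10 genes. Bcat1, Bcat2 and Bckdhb, at 0.49, 0.59 and 0.66, stand in the sparse right flank, and the other 7 lie between -0.22 and 0.12, in the dense centre.

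The rest of the pathway was read from 25 further genes of transport and of the later steps. Of these, 23 passed the filter, Slc6a15 and Hmgcll1 being dim on both arrays. Among the 23, 7 were higher and 16 lower, with a median of -0.10, against 36.6% and 62.3% of all genes. None was at least 1.2-fold higher, against 7.13%, 4 were at least 1.2-fold lower, against 14.6%, and 0 reached 1.5-fold in either direction. Hibadh counts as higher through the mean of 2 probe sets that disagreed in sign, of which the bright one read 2639 in Oma1-deficient and 2756 in wild-type fat. Taking the brighter probe set instead of the mean, 6 were higher and 17 lower. After loess or centring on the median 10 were higher and 13 lower.

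Amino acid carriers were near 0, with 3 higher and 3 lower of the 6 past the filter, against 36.6% and 62.3% of all genes. That count depended on the scaling, with 4 higher and 2 lower after quantile normalisation, loess or centring. Slc3a2 counted as lower at 3992 in Oma1-deficient and 3996 in wild-type fat. Slc25a44, the mitochondrial carrier of branched-chain amino acids, read 736 in Oma1-deficient and 708 in wild-type fat, a difference of 0.06. Slc43a2, a plasma membrane carrier of neutral amino acids, read 350 in Oma1-deficient and 304 in wild-type fat, a difference of 0.20, the highest of the 23. The heavy chain Slc3a2 and its light chain Slc7a5, which together exchange leucine across the plasma membrane, had differences of 0.00 and -0.10.

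In the leucine branch all 3 genes past the filter were lower, though Ivd was higher after quantile normalisation, loess or centring, and 62.3% of all genes were lower. Oxct1, which activates ketone bodies such as acetoacetate, an end product of leucine, read 925 in the Oma1-deficient array and 1156 in the wild-type array, a difference of -0.32. Auh, the methylglutaconyl-CoA hydratase that follows Mccc1 and Mccc2, had a difference of -0.16, and Ivd, isovaleryl-CoA dehydrogenase, which precedes them, -0.04. In the isoleucine and valine branches 4 of 8 were higher and 4 lower. Acadsb, the short/branched-chain acyl-CoA dehydrogenase of isoleucine, read 655 in Oma1-deficient and 879 in wild-type fat. At -0.42 its difference was the lowest of the 23. Hibch, the hydrolase of the valine branch, read 551 in Oma1-deficient and 666 in wild-type fat, a difference of -0.27.

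Isoleucine and valine end in propionyl-CoA, which is converted to succinyl-CoA, and all 6 genes of this conversion were lower, against 62.3% of all genes, with a median of -0.16. That count depended on the scaling, with 5 of 6 lower after loess or centring and 4 of 6 after quantile normalisation. Mcee, methylmalonyl-CoA epimerase, read 2435 in Oma1-deficient fat and 3065 in wild-type fat, a difference of -0.33. Mmut, the mutase that depends on vitamin B12, had a difference of -0.20, and the subunits Pcca and Pccb of propionyl-CoA carboxylase -0.16 and 0.00, Pccb being lower by 2 intensity units only.

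**Figure D3:**
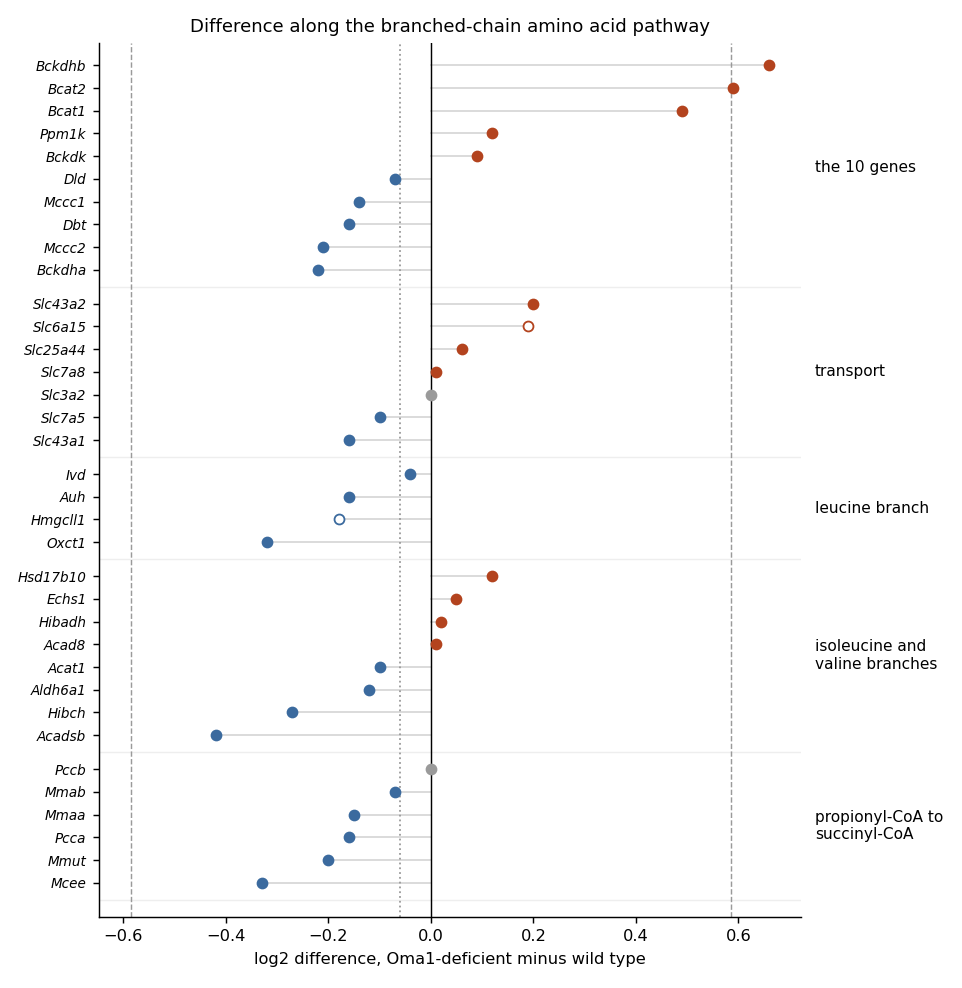
Log2 difference, Oma1-deficient minus wild type (horizontal axis), of the 10 genes and of the measured genes of transport and later steps, 1 point per gene. Red points are higher, blue lower and grey 0.00 in the Oma1-deficient array, open points did not pass the intensity filter, dashed lines mark 1.5-fold and the dotted line the median of -0.06 over all genes past the filter. Only Bckdhb and Bcat2 reach a dashed line, and Acadsb, at -0.42, is the lowest point.

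Dld also serves the pyruvate, 2-oxoglutarate and 2-oxoadipate dehydrogenases and the glycine cleavage system. Of 10 genes of those complexes 2 were higher and 8 lower, with a median of -0.12, against 62.3% lower over all genes. Dlat, the E2 of pyruvate dehydrogenase, read 965 in Oma1-deficient and 1190 in wild-type fat (-0.30), and Dhtkd1, the E1 of the 2-oxoadipate complex, 148 in Oma1-deficient and 195 in wild-type fat (-0.40). Gldc, the glycine decarboxylase, went the other way at 118 in Oma1-deficient and 86 in wild-type fat (0.45), just above the filter in wild type. Pdha1 and Pdhb, the E1 subunits of pyruvate dehydrogenase, had differences of 0.13 and -0.22, which are 0.35 apart, against 0.88 for the E1 subunits of the branched-chain complex.

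Among the kinases and phosphatases of pyruvate dehydrogenase, relatives of Bckdk and Ppm1k in role, 2 of 7 were higher and 5 lower, near the 62.3% lower over all genes, with a median of -0.22. Pdk3 read 204 in Oma1-deficient and 270 in wild-type fat, a difference of -0.40, while Pdk4, the kinase induced by fasting, had one of 0.12 and Pdk1 and Pdk2 of -0.26 each. Of the enzymes that make, attach or recycle lipoic acid and biotin, Lias, lipoyl synthase, read 308 in Oma1-deficient and 374 in wild-type fat (-0.28), Btd, biotinidase, had a difference of -0.21, and Hlcs, which joins biotin to Mccc1, one of 0.06. Lipt2 was at 0.00, and Lipt1 did not pass the filter. Of the other biotin carboxylases Acacb, which makes malonyl-CoA at the mitochondrial surface, read 607 in Oma1-deficient and 790 in wild-type fat (-0.38). Acaca, its cytosolic relative in lipogenesis, had a difference of 0.05, and Pc was not analysed here.

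Of the transcription factors linked to the pathway, 3 of the 4 past the filter were lower and 1 higher, a share near the 62.3% lower over all genes. Mlxipl, the carbohydrate response factor, known in liver to act on Bckdk and Ppm1k, read 469 in Oma1-deficient fat and 643 in wild-type fat, a difference of -0.45. Klf15, a regulator of amino acid catabolism, read 228 in Oma1-deficient and 259 in wild-type fat (-0.18), and Pparg, the adipocyte master regulator, 3721 in Oma1-deficient and 4050 in wild-type fat (-0.12). Esrra, the estrogen-related receptor alpha, was the one higher, with 278 in Oma1-deficient and 243 in wild-type fat (0.19). Ppargc1a did not pass the filter.

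Markers of several cell types differed between the arrays as well. Over all genes past the filter 36.6% were higher, 62.3% lower and 1.23% at least 1.5-fold higher, with a median of -0.06. In bulk tissue a change in the number of cells of a type and a change in RNA per cell cannot be told apart. Adipocyte markers, which include Adipoq at 5255 in Oma1-deficient and 6832 in wild-type fat, were bright on both arrays of this fat tissue. Of them 8 of 9 were lower, with a median of -0.11, or -0.05 once centred on the median of all genes. Their summed intensities were 52187 in Oma1-deficient and 58735 in wild-type fat. Macrophage markers were higher in 9 of 10, with a median of 0.26. Cd68 counted as higher at 5626 in Oma1-deficient and 5616 in wild-type fat, a difference of 0.00. Itgam, the 1 lower, had a difference of -0.02. The summed intensities of the macrophage markers were 38476 in Oma1-deficient and 32736 in wild-type fat. Fcgr1, the most different, read 503 in Oma1-deficient and 308 in wild-type fat. Adgre1, a defining macrophage marker, read 2896 in Oma1-deficient and 2497 in wild-type fat. Liver markers were higher in 7 of 8 and at least 1.5-fold higher in 5, with a median of 0.87. Summed, they read 8125 in Oma1-deficient fat and 3583 in wild-type fat, and Alb, which encodes albumin, read 4523 in Oma1-deficient and 1692 in wild-type fat.

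All 7 endothelial markers were lower (median -0.34), against 62.3% lower over all genes past the filter. Also lower were 5 of 6 mesothelial markers (median -0.62) and all 3 B cell markers past the filter (median -0.51). Wt1, the mesothelial marker that went the other way, read 214 in Oma1-deficient and 178 in wild-type fat (0.26). The endothelial markers summed to 6397 in Oma1-deficient and 8211 in wild-type fat, the mesothelial markers to 1415 in Oma1-deficient and 2098 in wild-type fat and the B cell markers to 457 in Oma1-deficient and 691 in wild-type fat. Of the muscle markers, relevant because muscle also expresses Bcat2, 2 of 5 were under the filter. The 3 past it were all higher, against 36.6% of all genes past the filter. Tnnt3 read 90 in Oma1-deficient and 77 in wild-type fat (0.22), and Acta1 272 in Oma1-deficient and 270 in wild-type fat. The part of any of these cell types in the higher values of Bcat1, Bcat2 and Bckdhb was not tested. Among the measured markers none was listed at an intensity of 0. Oma1 itself read 155 in the Oma1-deficient and 187 in the wild-type array (-0.27). Its 1 probe set cannot check the genotype, since the disrupted part of the gene is not given.

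**Figure D4:**
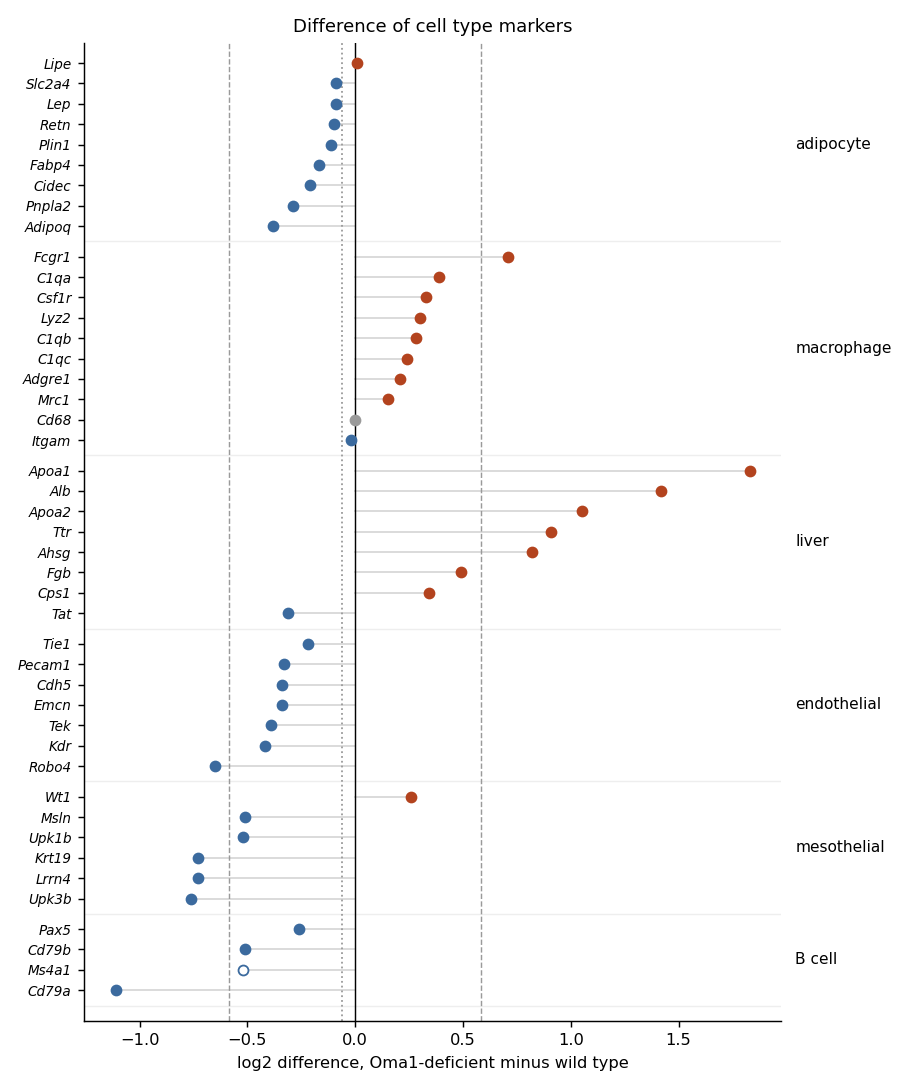
Log2 difference, Oma1-deficient minus wild type (horizontal axis), of markers of 6 cell types, 1 point per gene, with colours, open points and lines as in the plot of pathway steps. Liver markers reach 1.83 (Apoa1) and macrophage markers 0.71 (Fcgr1) on the higher side, endothelial and mesothelial markers lie mostly on the lower side, and adipocyte markers lie between -0.38 and 0.01.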

How the data were processed

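RNA was extracted with Trizol and biotin-labelled, per the labels. For every probe set the authors deposited a linear intensity, rounded to whole numbers, per array. How background was corrected, probes were summarised and arrays were scaled is not given in the sources used here. Names of probe sets come from GEO's annotation of the platform: 21789 of 35512 had 1 symbol, 1621 several and 12102 none, and only the first kind was used. Values became log2(intensity + 1), which understates differences of dim genes, and probe sets of a gene were averaged. Genes whose mean log2 value reached the median of all probe sets passed the filter. Calls are fixed sizes of 1.2-fold and 1.5-fold. With 1 array per group no test was run. Named were all 10 members, up to 4 genes of each other list with the largest difference, every pathway gene at least 1.2-fold different, and Oma1, Adipoq, Adgre1 and Alb. Slc25a44, Slc3a2, Hibadh, Pccb, Pdha1, Pdk4, Lipt2, Pparg, Acta1, Cd68, Itgam and Wt1 lie outside this rule and were named after their values were seen. The members and lists were chosen with earlier results of these data known. The fold counting code was run on a copy of the wild-type array with known folds multiplied in. No noise was added, so this checks the code and not the calls. Skeletal muscle markers (3 past the filter) had a median of 0.05. Alternatives were quantile normalisation, loess (span 0.3), centring, the brightest probe set, a pseudocount of 16, no filter and a filter at the upper quartile. Python 3.11.15, numpy 2.4.6, pandas 2.3.3, statsmodels 0.14.6 and matplotlib 3.10.9 were used.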

Additional observations from a re-analysis of the deposited data

How the results depend on the processing

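No paired analysis was possible because there was 1 array per genotype, and for the same reason no array could be left out. All 7 alternatives were planned. Under them the difference of Bckdhb ranged from 0.65 to 0.72 and of Bcat2 from 0.58 to 0.65. That of Bcat1 ranged from 0.45 to 0.55 and that of Bckdha from -0.22 to -0.16. No member changed sign or moved by more than the yardstick of 0.17. The brightest probe set and the changes of filter could not alter a member's difference, since each member had a single probe set. For those alternatives an unchanged difference was fixed in advance. The count of members at least 1.5-fold different, 2, became 1 with a pseudocount of 16, where Bcat2 fell under that size. With the filter at the upper quartile 8 members were left, without Bcat1 and Ppm1k. That left 3 members higher in place of 5, and the median of the members became -0.10 in place of 0.01. Kinase minus phosphatase, at -0.03, became 0.01 after loess and could not be given with the upper quartile filter. Quantile normalisation, loess and centring moved the median of all genes past the filter by 0.05 to 0.06. Under each of them the median of the members became 0.07, and the median of the rest of the pathway became -0.03, -0.03 and -0.04 in place of -0.10. The number of arrays limits every value: genotype, mouse and array cannot be told apart.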

Other observations

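Genes that lie next to the 3 higher members on the chromosome were read as a further description, chosen after the members' values were seen. On each side the 5 nearest protein-coding genes with a probe set were taken from the RefSeq gene order of GRCm38.p6. Around Bckdhb 4 of the 10 neighbours passed the intensity filter, with differences from -0.62 to 0.04 and a median of -0.12, against 0.66 for Bckdhb. Sh3bgrl2, the third gene upstream, read 186 in Oma1-deficient and 287 in wild-type fat, while Tent5a, the next gene downstream, read 427 in Oma1-deficient and 413.5 in wild-type fat. Around Bcat1 6 neighbours passed, from -0.45 to 0.11 with a median of -0.07. The lowest was Etfrf1, a regulator of the electron transfer flavoprotein, at 259 in Oma1-deficient and 354 in wild-type fat. Around Bcat2 3 passed, from -0.20 to 0.20, with a median of 0.19. They were Nucb1, Ppp1r15a, a phosphatase subunit induced in the integrated stress response, and Rasip1, an endothelial protein. Fgf21, the stress hormone gene beside Bcat2, was under the filter at 61 in Oma1-deficient and 54 in wild-type fat. In none of the 3 places was a neighbour past the filter at least 1.2-fold higher, against 7.13% of all genes past the filter. At least 1.2-fold lower were 1 neighbour of Bcat1 and 1 of Bckdhb, against 14.6%. The neighbours were too few for these counts to be told apart from those shares.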
